A study of Mus musculus with 2 samples.

Results

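The EGF family ligands Egf, Areg, Ereg, Hbegf, Tgfa, Btc and Nrg1 and the ErbB receptors Egfr, Erbb2 and Erbb3 were taken as a listed set of 10 genes and followed across the epithelial types and the stromal cell groups of the mouse colon. All 10 were among the 17809 genes of the wild-type table, and 9 were among the 15972 genes of the reporter table, where Tgfa was not listed. The study profiled single cells to relate the colonic epithelium to the fibroblasts around its crypts. The wild-type library held cells of C57BL/6 colon, sorted into EpCAM+ CD45- epithelial cells and EpCAM- CD45- non-epithelial cells and mixed at equal fractions, and was made with kit version 3. The reporter library held mesenchymal cells of Pdgfra-H2B-eGFP colon, in which a nuclear GFP is made from the Pdgfra gene, sorted without antibodies on GFP and made with kit version 2. Each library pooled 3 female mice of 8 to 12 weeks, no cell could be traced to its mouse, and so no test across mice was possible and no p-value is given.

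EGF family ligands are made as membrane proteins that are cut from the cell surface and bind receptors on the same or nearby cells. EGF, amphiregulin, epiregulin, HB-EGF, TGF-alpha and betacellulin bind EGFR, and some of them bind ERBB4 as well. Neuregulins bind ERBB3 and ERBB4. ERBB2 has no known ligand of its own and acts as a partner of the other receptors, while ERBB3 has little kinase activity and signals through its partner. In the intestine these signals drive proliferation of the crypt epithelium and its repair, and EGF is a standard component of intestinal organoid cultures.

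The values are corrected counts, that is, UMI counts which the authors adjusted to a common depth. A level below is their mean over the cells of a class. The median total was 8972 over 7495 wild-type cells and 3150 over 4409 reporter cells, so levels were not compared between libraries. The libraries shared 1 cell barcode. Cells were clustered without the 10 genes and named from marker lists. CTFs, for crypt-top fibroblasts, is the study's name for the Pdgfra-high group and CBFs, for crypt-bottom fibroblasts, that for the Pdgfra-low group, and the name of each class ends in "-like" because the cells were clustered again. The 2476 epithelial cells of the wild-type library were 706 transit-amplifying-like, 668 enterocyte-like, 640 goblet-like and 86 enteroendocrine-like cells and 376 cells led by Krt36, Defb45 and Fut9 that no marker list named. At this resolution 8 of 10 stem cell markers were also at least 2-fold up in the transit-amplifying-like cells, and all 6 markers of deep crypt secretory cells were up in the goblet-like cells, so those classes were mixtures. The stroma held 1140 CBFs1-like, 505 CBFs2-like, 817 CTFs-like and 889 smooth muscle-like cells, besides 593 blood endothelial-like, 118 pericyte-like, 78 glia-like, 45 lymphatic endothelial-like, 40 immune-like and 20 interstitial cells of Cajal-like cells. Pdgfra had a mean of 8.60 in the CTFs-like against 1.79 in the CBFs1-like and 3.50 in the CBFs2-like cells. In the reporter library 643 CTFs-like, 2748 CBFs1-like and 851 CBFs2-like cells were found. There the CBFs1-like clusters, which were most of the library, had no marker list 2-fold up over the other cells and were named against the other fibroblasts, with Igfbp3 at 5.22 against 0.452 in the CBFs2-like cells and Pi16 at 0.0444 against 1.51. Pdgfra, Igfbp3 and Pi16 were on the lists that named these classes, so their levels are no separate check of the names. In the reporter library 114 immune-like and 53 epithelial cells were also found among the sorted mesenchymal cells.

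Some of the ligand genes lie side by side. On chromosome 5 of GRCm38, Ereg (91074622 to 91093646, plus strand) ends 46.0 kb before Areg (91139599 to 91148432, plus strand), and Btc (91357261 to 91402994, minus strand) follows after 209 kb. Epgn, which encodes epigen, lies 39.4 kb before Ereg. As described below, Ereg had its highest mean in smooth muscle-like and Areg in enterocyte-like cells. Btc had its highest mean in glia-like cells, where its share overlapped with that of epithelial cells. The promoters of Areg and of Egf (chromosome 3, 129677565 to 129755316, minus strand), ligands that peaked in different epithelial classes, are shown as the 250 bases before a RefSeq start (GRCm38.p6, 1 start for Areg and 1 of 2 for Egf), at chr5:91139349-91139598 on the plus strand and chr3:129755323-129755572 on the minus strand. Capitals mark a match to the cyclic AMP response element TGACGTCA, the AP-1 element TGANTCA or the TATA box TATAAA on either strand.
Areg: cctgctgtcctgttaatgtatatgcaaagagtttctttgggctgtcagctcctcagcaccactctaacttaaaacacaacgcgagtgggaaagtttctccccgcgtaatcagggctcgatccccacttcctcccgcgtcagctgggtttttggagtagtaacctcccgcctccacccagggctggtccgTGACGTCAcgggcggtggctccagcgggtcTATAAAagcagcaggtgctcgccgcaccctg
Egf: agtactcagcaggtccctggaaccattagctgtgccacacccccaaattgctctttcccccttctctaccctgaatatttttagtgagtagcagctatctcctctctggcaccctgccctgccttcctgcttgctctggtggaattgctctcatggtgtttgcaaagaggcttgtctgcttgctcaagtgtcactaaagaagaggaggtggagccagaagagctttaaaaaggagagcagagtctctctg
The Areg window held a cyclic AMP response element that began 61 bases before the start and a TATA box that began 31 bases before it. Among all 32851 RefSeq promoter windows of this length, 1.55% held the former, 12.4% the latter and 6.75% the AP-1 element. The Egf window held none of these letters. RefSeq windows were matched for 6 of the 10 genes, and those of Tgfa, Btc, Egfr and Erbb2 held no match either.

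**Figure D1:**
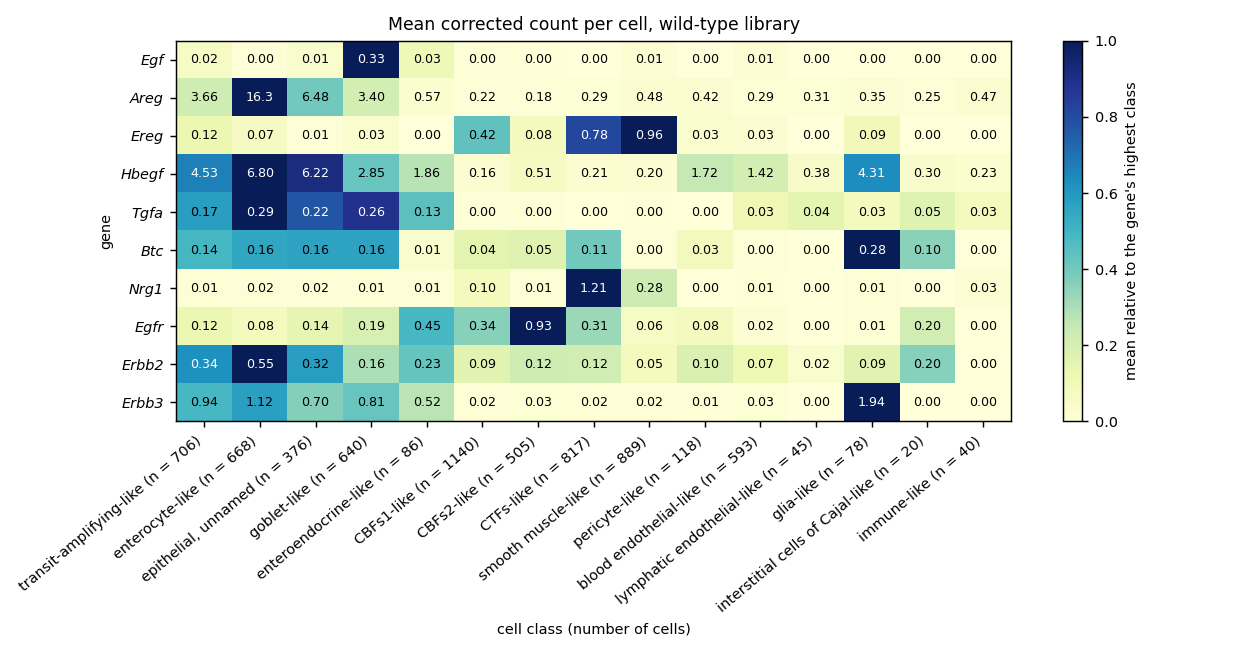
Mean corrected count of the 10 genes (rows) in the 15 classes of the wild-type library (columns, with the number of cells). Colour is scaled within each gene to its highest class and the printed number is the mean, so that Areg reaches 16.3 in enterocyte-like cells, Nrg1 1.21 in CTFs-like cells and Egfr 0.933 in CBFs2-like cells.

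In the wild-type library Areg (29.8-fold), Erbb3 (28.7-fold), Tgfa (20.0-fold), Hbegf (18.7-fold), Erbb2 (3.06-fold) and Btc (2.02-fold) were higher in the epithelium than in the fibroblasts. Nrg1 (18.4-fold), Ereg (6.40-fold) and Egfr (3.03-fold) were higher in the fibroblasts. The comparison of all 2476 epithelial cells with the 2462 fibroblasts (CBFs1-like, CBFs2-like and CTFs-like together) counted 11222 genes whose mean over both groups was at least 0.05. Of the 9 family genes counted, 6 were at least 2-fold higher in the epithelium, where 33.4% of all genes counted were, and 3 were at least 2-fold lower, where 16.7% of all genes were. Egf fell below the filter. Since a large share of all genes differed between epithelium and fibroblasts, the number of family genes past 2-fold says little by itself, and their levels in the single classes are given one by one.

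Areg encodes amphiregulin. Enterocyte-like cells had a mean of 16.3, the Krt36 epithelial cells 6.48, transit-amplifying-like 3.66, goblet-like 3.40 and enteroendocrine-like cells 0.570. In the 10 non-epithelial classes it lay between 0.176 and 0.484. Areg was above 0 in 88.2% of the enterocyte-like cells (exact 95% binomial interval 85.5 to 90.5), 77.4% of the Krt36 cells (72.8 to 81.5), 54.5% of the transit-amplifying-like cells (50.8 to 58.3) and 63.4% of the goblet-like cells (59.6 to 67.2). These 4 intervals did not overlap, and all lay above the 13.9% of the fibroblasts (12.5 to 15.3), chosen here for reference. The medians were 3221.5 genes per cell in the epithelium and 2641 in the fibroblasts. Shares in the other non-epithelial classes were higher, from 17.9% (glia-like) to 26.1% (smooth muscle-like) and 28.9% (lymphatic endothelial-like). The 4 intervals lay above those of these classes too. Enteroendocrine-like cells had 19.8%, and the interval of this share overlapped with that of smooth muscle-like cells. Binomial intervals here cover counting error only. With each cell thinned to a total of 2000, the share was still 77.7% in enterocyte-like and 33.9% in transit-amplifying-like cells. Both enterocyte-like clusters had it, at a mean of 15.5 in the 455 cells led by Sptssb and Cyp2c55 and 17.8 in the 213 cells led by Atp12a and Saa1. The level in enterocyte-like cells was 4.43-fold that in transit-amplifying-like cells and 4.77-fold that in goblet-like cells. Areg was the single family gene past 2-fold between enterocyte-like and transit-amplifying-like cells, out of 8 counted, where 10.6% of 10527 genes were higher and 27.3% lower in the enterocyte-like cells.

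Hbegf, which encodes heparin-binding EGF, was spread over more cell types than Areg. Enterocyte-like cells had a mean of 6.80, the Krt36 cells 6.22, transit-amplifying-like 4.53, goblet-like 2.85 and enteroendocrine-like cells 1.86. Outside the epithelium the glia-like cells had 4.31, the pericyte-like cells 1.72 and the blood endothelial-like cells 1.42, and the other 7 classes had 0.515 or less. Hbegf was above 0 in 84.6% of the 78 glia-like cells (74.7 to 91.8), 53.4% of the pericyte-like cells (44.0 to 62.6) and 50.6% of the blood endothelial-like cells (46.5 to 54.7), against 12.2% of the CBFs1-like cells (10.3 to 14.2). The enterocyte-like cells (91.3%) and the Krt36 cells (89.4%) had overlapping intervals. Glia-like and pericyte-like cells also had high sums of 10 genes induced by stress or dissociation, a list chosen after the values were seen (Fos, Egr1, Jun and others), at 214 and 252 corrected counts per cell against 43.8 in enterocyte-like and 70.6 in CBFs1-like cells. Whether this response had a part in the Hbegf level of those classes was not tested. Within the fibroblasts Hbegf was 3.03-fold higher in CBFs2-like than in CBFs1-like cells of the wild-type library (0.515 against 0.163), where the stress sum was 122 against 70.6. In the reporter library the means of these classes were 0.0846 and 0.0910, and their shares of 5.05% (3.68 to 6.75) and 6.11% (5.25 to 7.08) overlapped.

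Egf was found in goblet-like cells. Its mean there was 0.328, with 30.0% of the 640 cells above 0 (26.5 to 33.7). In the other epithelial classes 3.49% of enteroendocrine-like cells (0.725 to 9.86), 1.98% of transit-amplifying-like cells (1.09 to 3.30), 1.33% of the Krt36 cells (0.433 to 3.08) and 0.449% of enterocyte-like cells (0.0927 to 1.31) were above 0, and these neighbours overlapped. In the fibroblasts 0.284% of the cells were above 0. Finer clusters (resolution 0.8) gave 328 goblet-like cells led by Retnlb and B3gnt6 and 312 cells led by Zg16 and Best2 that got no name, and Egf was present in both, in 36.3% (31.1 to 41.7) and 23.4% (18.8 to 28.5) of the cells. After thinning to 2000 per cell 6.09% of the goblet-like cells were left above 0, against 0.425% of the transit-amplifying-like cells.

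Tgfa, which encodes TGF-alpha, was low and epithelial. Means ran from 0.289 in enterocyte-like, 0.256 in goblet-like, 0.223 in the Krt36 and 0.167 in transit-amplifying-like cells to 0.128 in enteroendocrine-like cells, and each share overlapped with that of the next class. No more than 0.396% of the cells of any fibroblast class were above 0, and in the CTFs-like class none of 817 was, which allows a share of up to 0.367%. Tgfa was above 0 in 2.70% of blood endothelial-like cells (1.55 to 4.34). Its mean there was 14.7% of that in epithelial cells, where the sum of 10 epithelial markers was 5.65%. Of the blood endothelial-like clusters, the 98 cells led by Selp had 39.9% for Tgfa and 4.67% for the markers, and the 495 cells led by Esm1 had 9.65% and 5.84%.

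Btc encodes betacellulin. The mean was 0.282 in glia-like cells, between 0.139 and 0.160 in the enterocyte-like, goblet-like, Krt36 and transit-amplifying-like cells, and 0.113 in CTFs-like cells. The shares were 21.8% in glia-like (13.2 to 32.6), 14.9% in Krt36 (11.5 to 18.9) and 9.18% in CTFs-like cells (7.29 to 11.4), against 0.225% in smooth muscle-like (0.0273 to 0.810) and 0.337% in blood endothelial-like cells (0.0409 to 1.21). From glia-like down to CTFs-like cells every neighbour in the order overlapped with the next. Its 2.02-fold excess in the epithelium over the fibroblasts lay at the 2-fold limit.

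**Figure D2:**
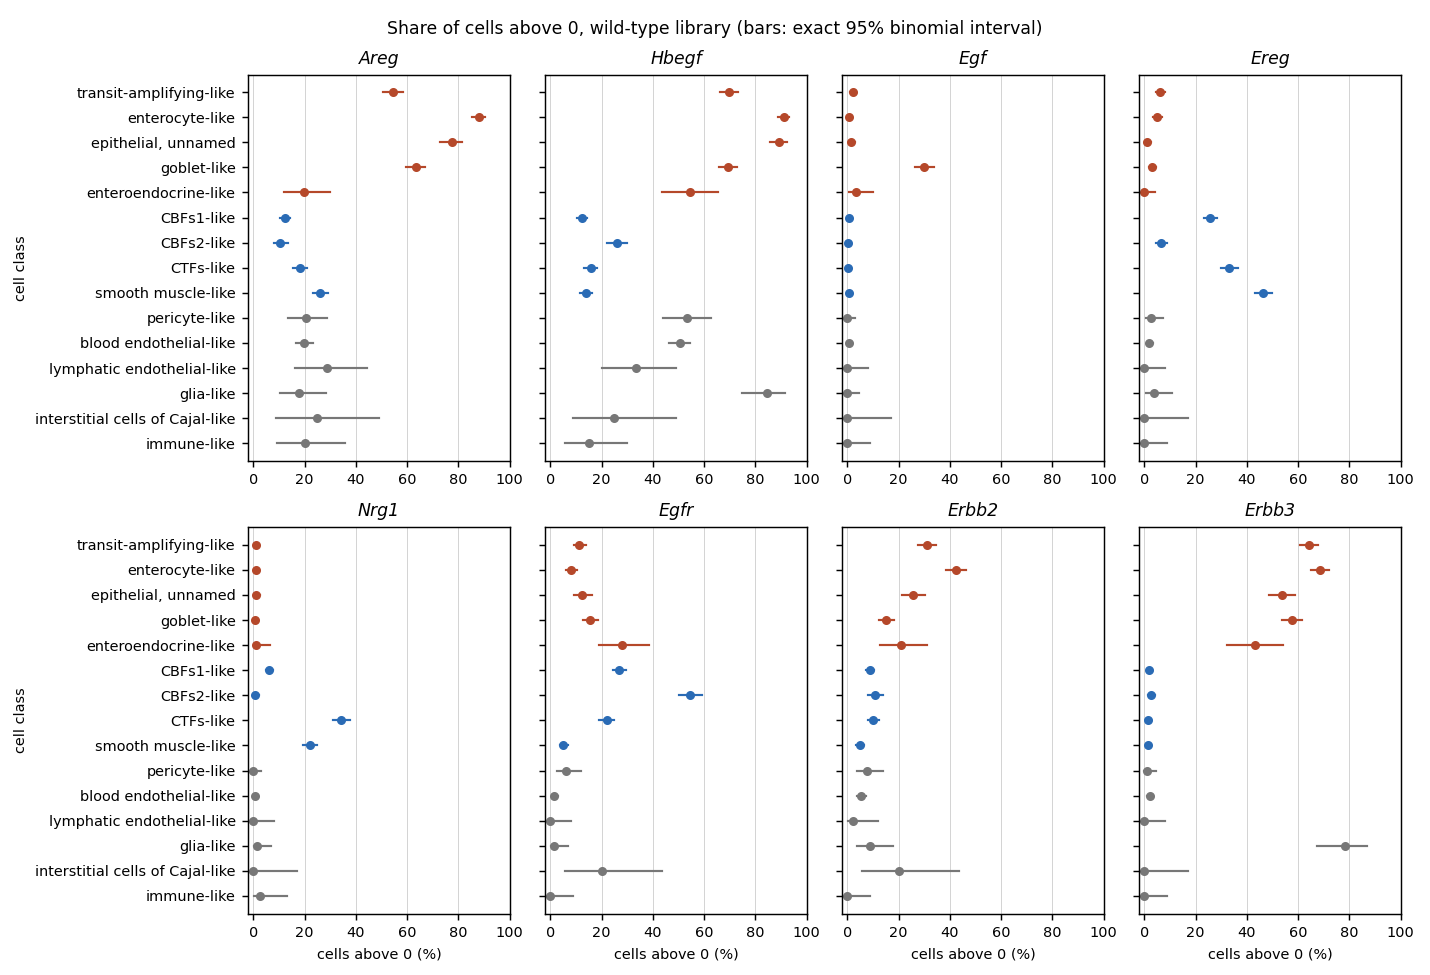
Percentage of cells above 0 (horizontal axis) for 8 of the genes in each class of the wild-type library, with exact 95% binomial intervals. Epithelial classes are red, fibroblasts and smooth muscle blue and the other classes grey. Egf stands apart in goblet-like cells at 30.0%, Ereg in smooth muscle-like, CTFs-like and CBFs1-like cells, and Erbb3 in the epithelium and in glia-like cells.

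Ereg, the neighbour of Areg, encodes epiregulin and was a stromal gene in these cells. The mean was 0.955 in smooth muscle-like, 0.777 in CTFs-like and 0.417 in CBFs1-like cells, but 0.0832 in CBFs2-like cells. It was 0.120 in transit-amplifying-like, 0.0734 in enterocyte-like cells and 0.0344 in goblet-like ones, with 0.0339 or less in pericyte-like, endothelial, immune-like and interstitial cells of Cajal-like cells. Shares above 0 were 46.5% (43.1 to 49.8), 33.0% (29.8 to 36.4) and 25.7% (23.2 to 28.3) in the 3 leading classes, with no overlap, and 6.34% (4.37 to 8.83) in CBFs2-like and 3.92% (3.19 to 4.76) in all epithelial cells. Thinned to 2000 per cell they were 17.1%, 12.9% and 9.39%, against 1.25% of the epithelium. With Ereg lower in the epithelium by 2.68 on the log2 scale and Areg higher there by 4.90, the neighbouring genes were divided between the compartments. In the finer clusters Ereg was above 0 in 7.98% (5.71 to 10.8) of 476 stem-like cells, 6.19% (3.34 to 10.4) and 4.4% (2.71 to 6.71) of the enterocyte-like clusters led by Atp12a and by Sptssb, and 1.74% (0.476 to 4.39) of 230 transit-amplifying-like cells. The intervals of the stem-like and both enterocyte-like clusters overlapped.

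The reporter library had Ereg in the same fibroblast classes apart from CBFs2-like cells. The mean was 0.528 in CBFs1-like, 0.311 in CTFs-like and 0.0306 in CBFs2-like cells, with 27.9% (26.3 to 29.7), 19.9% (16.9 to 23.2) and 2.23% (1.35 to 3.46) of the cells above 0. In both libraries, then, the CBFs2-like class had the lowest share of the 3, and its interval lay below those of the others. The order of the other classes turned, since Ereg was 2.43-fold higher in CTFs-like than in all CBFs-like cells of the wild-type library and 1.31-fold higher in CBFs-like cells of the reporter library. The 3 reporter clusters of CBFs1-like cells differed in Ereg, at means of 0.257 in the 1193 cells led by Adamdec1, 0.702 in the 1022 cells led by Sbno2 and 0.801 in the 533 cells led by Spock3. The sum of the stress genes was 37.2, 72.1 and 77.0 in these clusters. By class it was 55.6 (CBFs2-like), 57.9 (CBFs1-like) and 71.1 (CTFs-like) in the reporter library. In the wild-type library it was 122, 70.6 and 99.3 in the same order. The class with the lowest Ereg of the 3 thus had the lowest sum in the reporter and the highest in the wild-type library. The part of this response in the Ereg level was not tested.

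Nrg1, which encodes neuregulin 1, had its highest level in CTFs-like cells. The mean was 1.21 there, 0.278 in smooth muscle-like and 0.10 in CBFs1-like cells, and 0.0250 or less in every other class shown in the plot of class means. It was above 0 in 34.1% of CTFs-like (30.9 to 37.5), 22% of smooth muscle-like (19.4 to 24.9) and 6.05% of CBFs1-like cells (4.74 to 7.60), against 0.929% of the epithelial cells (0.590 to 1.39). In CBFs2-like cells 0.792% (0.216 to 2.02) were above 0, in the range of the epithelium. The ratio of CTFs-like to all CBFs-like cells was 14.8-fold in the wild-type library (1.21 against 0.0723) and 9.04-fold in the reporter library (0.281 against 0.0222). There the share was 17.0% of CTFs-like (14.1 to 20.1) against 2.47% of CBFs1-like (1.93 to 3.13) and 0.118% of CBFs2-like cells (0.00298 to 0.653).

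Where the CTFs-like cells formed 2 clusters, 1 of them held most Nrg1, although the gene was left out of the clustering. The wild-type CTFs-like cells split at the finer resolution alone and were 1 cluster at the main resolution and with 15 principal components, where the reporter CTFs-like cells were 1 cluster too. The finer clustering gave 2 wild-type CTFs-like clusters, 588 cells led by Fam180a, Cybrd1 and Sox6 and 229 cells led by Lpar3, Dmp1 and Trpa1, among whose 10 leading genes Il1rl1, Glp2r and Pla2g7 also stood. Nrg1 had a mean of 3.62 in the latter and 0.270 in the former, with 81.7% (76.0 to 86.5) and 15.6% (12.8 to 18.8) of the cells above 0. The reporter library held 521 CTFs-like cells led by Bmp3, Tagln and Wif1 and 122 led by Ptprr, Il1rl1 and Lpar3, with Glp2r again among the leading genes. The mean of Nrg1 was 1.14 in the smaller and 0.0806 in the larger cluster, with 59.0% (49.7 to 67.8) and 7.10% (5.05 to 9.66) of the cells above 0. The median number of genes above 0 per cell was 2910 against 2221.5 in the wild-type clusters and 1827.5 against 1441 in the reporter clusters. After thinning the corrected counts to 2000 per cell the shares were 43.2% against 5.44% and 41.0% against 4.80%. The sum of the stress genes was 122 against 90.3 in the wild-type and 62.4 against 73.1 in the reporter clusters, and its part in the Nrg1 level was not tested.

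Btc had the opposite distribution between these clusters. It was above 0 in 12.6% (10.0 to 15.5) of the 588 wild-type cells and in 0.437% (0.0111 to 2.41) of the 229 cells with high Nrg1. Among the reporter cells 8.06% (5.87 to 10.7) of the 521 cells and 0.820% (0.0208 to 4.48) of the 122 cells were above 0. Ereg followed Nrg1, at a mean of 1.32 against 0.565 in the wild-type and 0.541 against 0.257 in the reporter clusters, whereas Egfr had the same mean of 0.306 in both wild-type clusters. Nrg2, a further neuregulin, was above 0 in 40.2% (33.8 to 46.8) of the 229 and 16.2% (13.3 to 19.4) of the 588 wild-type cells, and in the reporter library it was above 0 in 0.820% and 0.192% of the cells. These clusters were formed from the same cells, so the differences between them are a description with no test.

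**Figure D3:**
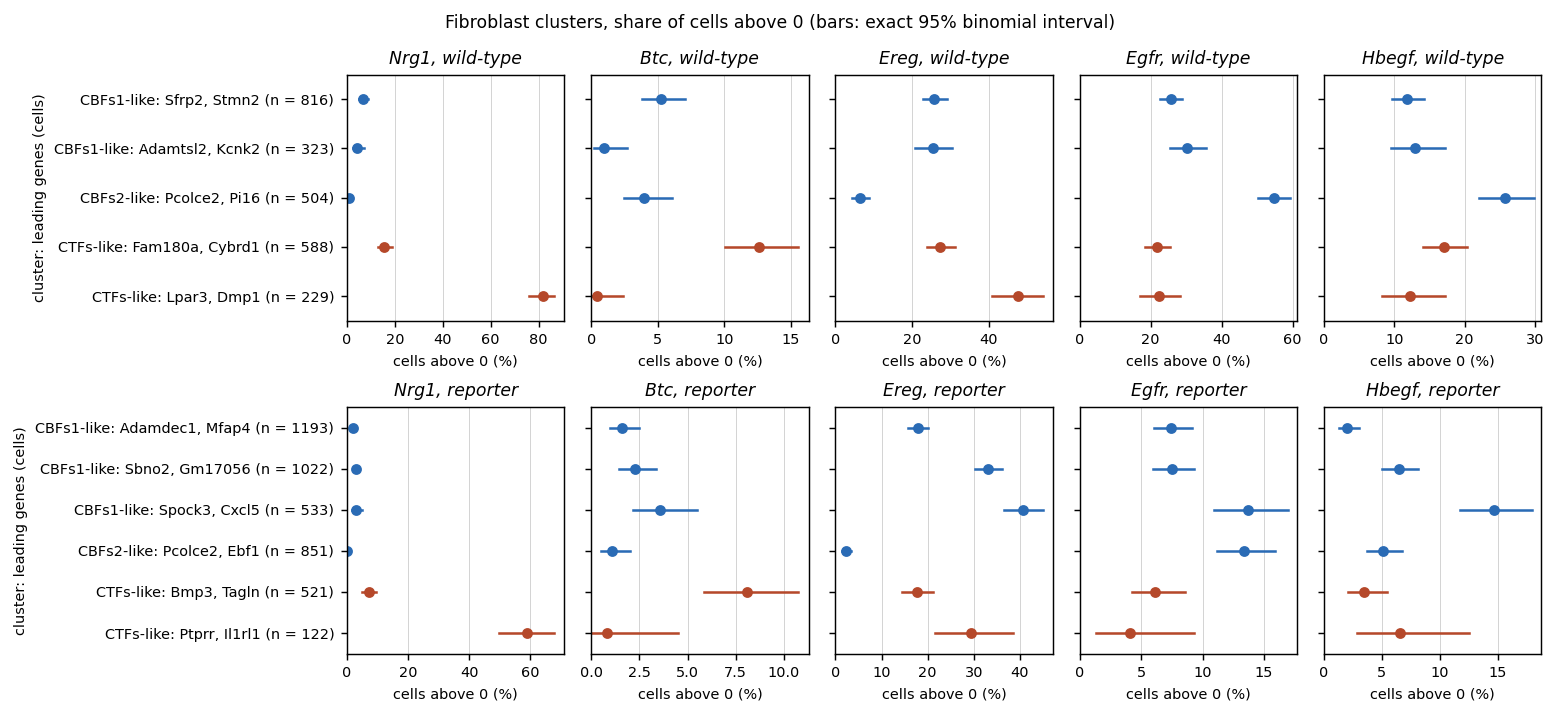
Percentage of cells above 0 (horizontal axes, scaled to each panel) for Nrg1, Btc, Ereg, Egfr and Hbegf in the fibroblast clusters of the wild-type library at the finer resolution (top) and of the reporter library (bottom), with exact 95% binomial intervals. CTFs-like clusters are red and CBFs-like clusters blue, each with its leading genes and number of cells. At these resolutions 1 CTFs-like cluster of each library has the highest share of Nrg1, at 81.7% and 59.0%, and has Btc in 0.437% and 0.820% of its cells.

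The comparisons of the fibroblast classes drew on the same filter and fold. In the wild-type library Nrg1, Ereg and Btc were past 2-fold in CTFs-like against CBFs-like cells, all of them higher, out of 7 counted, where 4.95% of 9584 genes were higher and 6.78% lower. In the reporter library Nrg1 was past 2-fold out of 4 counted, where 5.88% of 6697 genes were higher and 4.24% lower. Btc was 2.57-fold higher there but fell below the filter, at 0.0684 against 0.0206. Between CBFs2-like and CBFs1-like cells, Egfr and Hbegf were higher and Ereg and Nrg1 lower, 4 of 6 counted, where 5.66% of 9675 genes were higher and 3.17% lower.

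**Figure D4:**
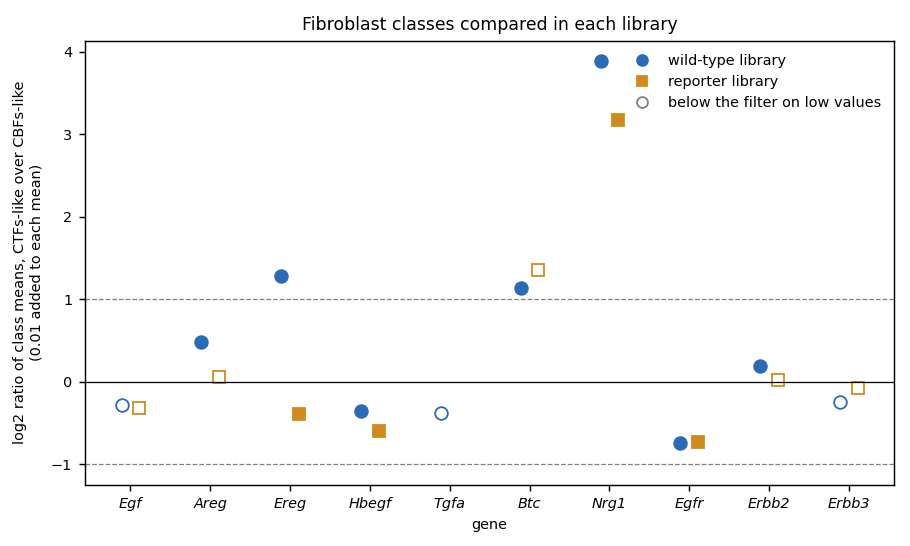
Log2 ratio of the mean in CTFs-like to the mean in CBFs-like cells for each gene (0.01 added to each mean), in the wild-type library (blue circles) and the reporter library (orange squares). Open symbols lie below the filter on low values and dashed lines mark 2-fold. Nrg1 is at 3.89 and 3.18, while Ereg lies on opposite sides of 0 at 1.28 and -0.39.

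Egfr, the receptor of the amphiregulin group of ligands, was higher in fibroblasts than in the epithelium. CBFs2-like cells had a mean of 0.933, enteroendocrine-like 0.453, CBFs1-like 0.337, CTFs-like 0.306, goblet-like 0.188 and enterocyte-like cells 0.0823. Egfr was above 0 in 54.7% of CBFs2-like cells (50.2 to 59.1), clear of the 26.9% of CBFs1-like (24.4 to 29.6) and the 21.9% of CTFs-like cells (19.1 to 24.9), whose intervals overlapped. The share was 27.9% in enteroendocrine-like (18.8 to 38.6), 15.6% in goblet-like (12.9 to 18.7), 11.3% in transit-amplifying-like (9.09 to 13.9) and 7.93% in enterocyte-like cells (6.00 to 10.2). It was 1.52% in blood endothelial-like cells (0.696 to 2.86), at a median of 2051 genes per cell. The reporter library had the same order among fibroblasts, with means of 0.166 (CBFs2-like), 0.0928 (CBFs1-like) and 0.0622 (CTFs-like) and shares of 13.4% (11.2 to 15.9), 8.70% (7.67 to 9.81) and 5.75% (4.08 to 7.84). Within the reporter CBFs1-like cells the cluster led by Spock3 reached 13.7% (10.9 to 16.9), which overlapped with the CBFs2-like cells. In CBFs2-like cells of the wild-type library 14.1% of the cells were above 0 for both Egfr and Hbegf. The separate shares there were 54.7% and 25.9%. Whether the 2 genes met in the same cells more often than these shares give was not tested.

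In 96.1% of enterocyte-like cells at least 1 of the 6 genes for EGFR ligands was above 0, as in 90.0% of goblet-like and 80.3% of transit-amplifying-like cells, against 46.9% of the fibroblasts. Levels of the ligands and the receptor were not compared with each other, since 3' counts of different genes are not on 1 scale.

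Erbb3, the receptor of neuregulins, was epithelial and glial. The mean was 1.94 in glia-like, 1.12 in enterocyte-like, 0.945 in transit-amplifying-like, 0.809 in goblet-like, 0.705 in the Krt36 and 0.523 in enteroendocrine-like cells. Each share overlapped with the next in this order, from 78.2% of glia-like cells (67.4 to 86.8) to 43.0% of enteroendocrine-like cells (32.4 to 54.2). In every other class the mean was 0.0337 or less and the share 2.38% or less. Between the enterocyte-like clusters the mean was 1.47 in the cells led by Atp12a and 0.949 in those led by Sptssb, with shares of 78.4% (72.3 to 83.7) and 64.0% (59.4 to 68.4). In the reporter library Erbb3 was above 0 in 0.0364% of the CBFs1-like, 0.118% of the CBFs2-like and none of the 643 CTFs-like cells, which allows a share of up to 0.467%. Nrg1 and its receptor Erbb3 were highest in different classes, Nrg1 in CTFs-like and smooth muscle-like cells and Erbb3 in the epithelium and glia-like cells.

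Erbb2, the partner receptor, had a mean of 0.551 in enterocyte-like, 0.343 in transit-amplifying-like, 0.322 in the Krt36, 0.233 in enteroendocrine-like and 0.163 in goblet-like cells. It was also present in fibroblasts, at 0.123 (CBFs2-like), 0.116 (CTFs-like) and 0.0912 (CBFs1-like), and glia-like cells had 0.0897. The share was 42.4% in enterocyte-like cells (38.6 to 46.2) and 15% in goblet-like cells (12.3 to 18.0). Erbb2 and Erbb3 were both above 0 in 30.4% of enterocyte-like, 20.3% of transit-amplifying-like and 8.44% of goblet-like cells, and in 0.447% of fibroblasts. In the same epithelial order the separate shares were 42.4%, 31.0% and 15% for Erbb2 and 68.6%, 64.3% and 57.7% for Erbb3. Whether both met in the same cells more often than these shares give was not tested.

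Goblet-like cells differed from enterocyte-like cells in 5 of the 9 genes counted. Egf and Egfr were at least 2-fold higher in goblet-like cells, where 19.8% of 10413 genes were, and Areg, Hbegf and Erbb2 were at least 2-fold lower, where 11.7% were. Egfr was 2.14-fold higher (0.188 against 0.0823), and Erbb2 was 3.25-fold and Hbegf 2.38-fold higher in enterocyte-like cells. Tgfa, Btc and Erbb3 were within 1.38-fold, and Ereg was at 0.0344 against 0.0734.

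Epithelial RNA was found in all stromal classes, and its size is given beside the low levels above. The sum of 10 epithelial markers (Epcam, Krt8, Krt18 and others) in the non-epithelial classes of the wild-type library was between 1.18% and 5.65% of its level in epithelial cells, and in the fibroblast classes 1.98% in CBFs1-like, 2.56% in CBFs2-like and 3.32% in CTFs-like cells. Areg stood at 3.02%, 2.41% and 4.0% of its epithelial level in those classes and Erbb3 at 2.23%, 3.50% and 2.03%, near the markers. Areg was further above the markers in smooth muscle-like (6.61% against 2.11%) and immune-like cells (6.49% against 2.48%). It was below them in blood endothelial-like (3.99% against 5.65%) and lymphatic endothelial-like cells (4.25% against 4.97%). Hbegf stood at 88.4% in glia-like, 35.3% in pericyte-like cells and 29.1% in those of the blood endothelium, and Erbb3 at 214% in glia-like cells, where the markers were at 3.71% (glia-like), 4.30% (pericyte-like) and 5.65% (blood endothelial-like). Erbb2 stood at 26.4% to 35.6% and Btc at 30.3% to 76.4% in the fibroblast classes, above the markers. In the reporter library the markers were at 0.117% to 0.209% of the level of the 53 epithelial cells in the fibroblast classes.

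**Figure D5:**
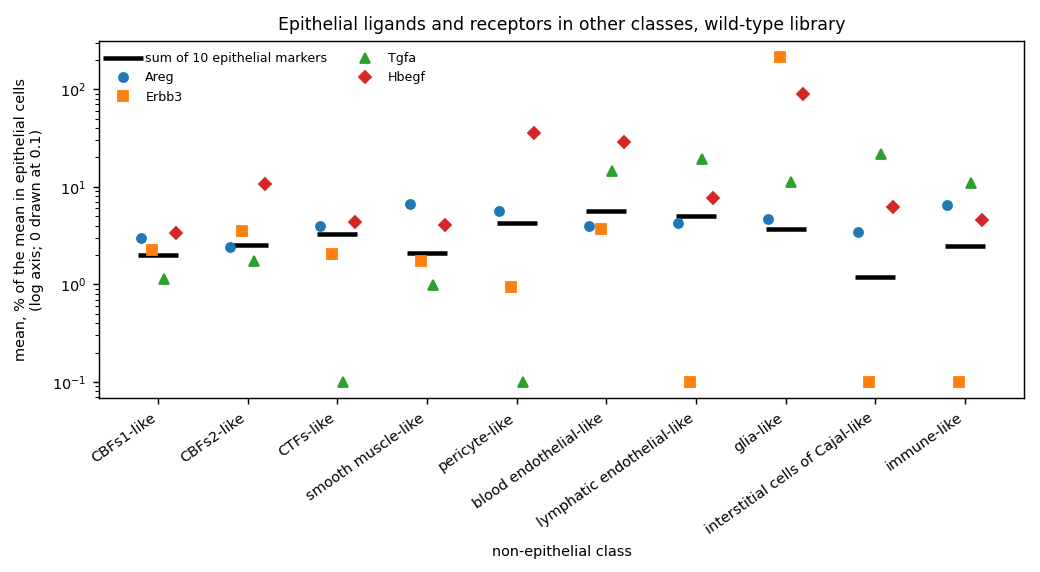
Mean of Areg, Erbb3, Tgfa and Hbegf in each non-epithelial class of the wild-type library as a percentage of its mean in epithelial cells (vertical log axis, values of 0 drawn at 0.1), with the sum of 10 epithelial markers as black bars. In the fibroblast classes Areg and Erbb3 lie near the bars, between 2.03% and 4.0%, and in glia-like cells Hbegf (88.4%) and Erbb3 (214%) lie far above the bar.

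The other ligand and receptor genes were sparse. Nrg3 and Erbb4 were in neither table, and Epgn and Nrg4 were in the wild-type table alone. Epgn was above 0 in 2.22% of epithelial cells (1.68 to 2.88) and 0.162% of fibroblasts (0.0443 to 0.415), and Nrg4 in 2.34% (1.78 to 3.02) and 0.122% (0.0251 to 0.356). Nrg2 was 7.05-fold higher in CTFs-like than in CBFs-like cells of the wild-type library (0.305 against 0.0347). Its reporter means were 0.00311 and 0.00139, too few counts for a comparison.

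The wider pathway, a list of 45 genes with the remaining ligands, the sheddases, the receptor inhibitors, the adaptors, the kinase cascade to Erk and the Erk targets, was counted in the same comparisons. Between epithelium and fibroblasts 11 of 41 genes counted were at least 2-fold higher and 8 lower, beside 33.4% and 16.7% of all genes, with a median log2 ratio of 0.18 against 0.46 over all genes counted. Fosl1, a subunit of AP-1 and an Erk target, was at 1.37 in the epithelium against 0.0617 in the fibroblasts, and Etv4, an ETS factor, at 0.203 against 0.0122. The feedback inhibitor Spry1 was at 0.253 against 1.19 and Ier3 at 0.671 against 4.47.

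Within the epithelium 5 of 40 pathway genes were higher and 7 lower in enterocyte-like than in transit-amplifying-like cells (10.6% and 27.3% of all genes, with a median log2 ratio -0.05, and -0.41 over all genes). Map2k1, which encodes the kinase MEK1, was at 1.2 against 0.346 and the phosphatase gene Dusp5 at 1.59 against 0.475. Etv4 was at 0.0479 against 0.449, and Lrig1, an inhibitor of ErbB receptors and a marker of crypt base cells, at 0.0838 against 0.644. Between goblet-like and enterocyte-like cells 7 of 40 were higher and 5 lower (19.8% and 11.7% of all genes, with a median of 0.07, and 0.31 over all genes). The ETS factor Etv5 was at 0.997 in goblet-like against 0.0150 in enterocyte-like cells and Lrig1 at 0.463 against 0.0838. Fosl1 was at 0.850 against 2.13.

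Among fibroblasts 5 of 39 were higher and 5 lower in wild-type CTFs-like than CBFs-like cells (4.95% and 6.78% of all genes, with a median of -0.06, and -0.06 over all genes), and 3 of 29 were higher and none lower in the reporter library (5.88% and 4.24% of all genes, with a median of 0.18, and 0.19 over all genes). Spry4, a feedback inhibitor of receptor signalling, was higher in CTFs-like cells of both, at 0.540 against 0.171 and 0.148 against 0.0539, and Rhbdf2, whose product is a partner of the sheddase ADAM17, was higher in the reporter CTFs-like cells (0.0747 against 0.0289). Adam17 itself was at 0.0560 against 0.117 there and Errfi1, an inhibitor of EGFR, at 0.140 against 0.286, both within 2-fold. Lrig1 (0.0269 against 0.0802) and Lrig3 (0.0453 against 0.117) were lower in CTFs-like cells of the wild-type library. In CBFs2-like against CBFs1-like cells 3 of 38 were higher and none lower (5.66% and 3.17% of all genes, with a median of 0.39, and 0.08 over all genes). These were Egr1 (28.8 against 8.55), Fosl1 (0.150 against 0.0456) and Dusp5 (0.248 against 0.0798). Spry1 (0.653 against 1.15) and Phlda1 (4.33 against 6.19) had the lowest ratios. Egr1 was also on the list of stress genes.

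The genes most like each family gene over the 14 named wild-type classes were found by Pearson correlation of the log2 class means among 13583 genes. This is a description across classes of 1 library that differ in genes per cell and in number of cells. Egf was most like the sulfotransferase gene Gal3st2 (r = 0.99), Gal3st2b (r = 0.98) and Ano7 (r = 0.98), and Areg was most like Fam83c, Cox7b and Cox6a1 (r = 0.96 to 0.97). Erbb3 was most like Epb41l4b (r = 0.97), Ythdc2 and Kif21a, and Tgfa like Cyb561d1 (r = 0.96), Mansc1 and Osbpl7. Erbb2 was most like Thnsl2 (r = 0.95), Fars2 and Ube3b, and Hbegf like Pcdh1 (r = 0.93), Gclc and Tubb4b. Among the stromal genes Nrg1 was most like Nxf7 (r = 0.93), Fbn2 and Gm42481. Nxf7 was also among the leading genes of the 122 reporter cells with high Nrg1. Egfr was most like Gm37524 (r = 0.94), Coq8b and Ror2, and Ereg like Fbxo24 (r = 0.91), C1rl and Gm42635. Btc had the weakest matches, Bckdhb (r = 0.84), Mlph and Prkca.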

How the data were processed

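Single-cell RNA was measured in 2 libraries, 1 per genotype, each of 3 pooled mice. The authors aligned the reads to mm10 with Cell Ranger and used Seurat 3.1 under R 3.6.2 to filter and to normalize with SCTransform. The deposited score values are whole numbers, the corrected counts which that step returns. A second deposited set holds their natural log, ln(1 + value). The tables do not name themselves corrected. This follows from their narrow totals per cell, 6120 to 16389 (wild-type) and 2314 to 4432 (reporter), so the sequenced depth is unknown and a value above 0 need not be a molecule. Of the 7495 wild-type cells, 7394 lay within the study's limits on genes and mitochondrial share (500 to 7500 genes, under 25%), and of the 4409 reporter cells 4407 did (500 to 4000 genes, under 10%). These were counted on the corrected values, whereas the study set its limits before that correction.

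The log values were clustered in Seurat 5.3.0 under R 4.3.3 with the study's 30 principal components and resolutions of 0.45 and 0.3, after the 10 genes and the pathway list were taken out of 3000 variable features (2984 and 2983 used). Python 3.11.15, numpy 2.4.6, scipy 1.17.1, pandas 2.3.3, scanpy 1.11.5 and matplotlib 3.10.9 did the rest. Classes were named from marker lists by a scoring rule written after the clusters were seen. Levels are means per cell of a class. Shares of cells above 0 have Clopper-Pearson 95% intervals, and a share of 0 is given a limit of 3 cells over the number of cells. Ratios add 0.01 to each mean, genes count where the mean of both class means is at least 0.05, and 2-fold is the limit. The planned results were all values with no test. The ratios were run on simulated data with known changes larger than 2-fold, in genes well above the filter. That run could not check changes near 2-fold or genes near the filter. Scrublet marked 7 (0.0934%) and 5 (0.113%) cells, too few to have worked, and doublets were kept.

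The genes and lists were chosen with earlier results of these data known. The text names the 10 genes, the other ligands and receptors, the 2 highest and 2 lowest ratios of the pathway list in each comparison (1 of them is not reported here), the 3 genes of like pattern, and leading genes and markers of clusters. Dusp5 in the comparison of CBFs2-like with CBFs1-like cells, the leading genes of named clusters and the stress list were named after values were seen. Positions come from GENCODE M21 (GRCm38, the build of mm10), joined by symbol.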

Additional observations from a re-analysis of the deposited data

Results flagged for a closer look

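Ereg had opposite ratios of CTFs-like to CBFs-like cells in the libraries, with log2 ratios of 1.28 (wild-type) and -0.39 (reporter). With 1 library each, the difference was not tested, and kit, sort and genotype cannot be told apart.

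The comparisons left out 774 wild-type cells in 4 clusters without a name, led by Hbb-bs and Hba-a1, by C3 and Pi16, by Notch3 and Ndufa4l2 and by Ckb and Actg2. Their values are given because no comparison used them. Hbegf was above 0 in 84.0% and Areg in 73.3% of these cells, Erbb3 in 12.4%, Erbb2 in 9.30%, Egfr in 5.04%, Ereg in 4.39%, Tgfa in 2.71%, Btc in 2.58%, Nrg1 in 1.55% and Egf in 1.42%. The sum of the epithelial markers was 39.5% of the level in epithelial cells over all of them, but 58.5% in the 487 cells led by Hbb-bs, 11.1% in the 61 led by Ckb, 9.95% in the 127 led by C3 and 1.38% in the 99 led by Notch3. Median genes per cell were 1741, 1697, 1721 and 3851 in that order. Of 10 epithelial markers 8.98, 8.90, 8.65 and 1.47 were above 0 per cell, and of 10 fibroblast markers 6.30, 8.15, 8.80 and 5.59. At least 7 of the former with 5 of the latter left a cluster unnamed as mixed. In the cells led by Notch3, 9 of 10 pericyte and 10 of 10 blood endothelial markers were at least 2-fold up. Areg was above 0 in 78.6%, 95.1%, 89.8% and 12.1% of these clusters' cells and Hbegf in 82.8%, 96.7%, 94.5% and 68.7%. The part of epithelial RNA in these values was not tested.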

How the results depend on the processing

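The family genes gave 23 calls past 2-fold over the 6 comparisons, each of 1 gene in 1 comparison. All calls kept their sign under the 12 alternatives. Those that altered only the added constant, the filter or the fold reused the same class means and could not change a sign. Under each of the 12 alternatives, 15 calls stayed past both 2-fold and the filter on low values, or past the looser limit. Dropping the filter or taking 1.5-fold could not remove a call. The exceptions lost that mark with cells thinned to 2000 (Egf and Egfr in goblet-like against enterocyte-like, Tgfa, Nrg1, Erbb2 and Btc in epithelium against fibroblasts, Btc in wild-type CTFs-like and Nrg1 in CBFs2-like cells), and Btc, Egfr and that Nrg1 value also under others. Egf in that comparison and Tgfa, Nrg1 and Erbb2 in epithelium against fibroblasts lost the mark by the filter and not by the fold. Their log2 ratios stayed past 2-fold under every alternative. The values closest to 2-fold were 2.03 (Egf), 1.69 (Tgfa), -2.26 (Nrg1) and 1.11 (Erbb2). The alternative without the highest 5% of Scrublet scores was chosen after seeing the data. Genes in the counts below are past both the filter and 2-fold, except where a setting changes either. Below, counts run in the order of epithelium against fibroblasts, enterocyte-like against transit-amplifying-like, goblet-like against enterocyte-like, CTFs-like against CBFs-like cells (wild-type, then reporter) and CBFs2-like against CBFs1-like cells.

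The 5621, 3991, 3279, 1124, 678 and 855 genes past 2-fold became 2298, 1918, 1669 and 533 in the first 4 and 395 in the last when thinned. With 0.1 added they became 3716, 2331, 1996, 663, 318 and 447. At 1.5-fold the last 5 became 6463, 5702, 2149, 1619 and 2082, with no filter the last 3 became 1806, 1245 and 1512, and per 10000 the reporter count became 1255. Thinning moved the share of these genes that were higher from 66.6% to 50.5%, 28.0% to 39.7% and 62.9% to 50.4% in the first 3. The count of family genes went from 9 to 5 and from 5 to 3 (epithelium, goblet-like) when thinned, from 1 to 2 (15 principal components, no filter) or 4 (1.5-fold) in enterocyte-like cells, and from 1 to 2 (per 10000, no filter) or 3 (1.5-fold) in the reporter library. The pathway counts of 19, 12, 12, 10, 3 and 3 became 12 in the first, 4 (wild-type CTFs-like), 1 (reporter) and 1 in the last when thinned, and 21 (enterocyte-like), 22 (goblet-like), 11 (reporter) and 13 (CBFs2-like) at 1.5-fold. With 0.1 added they became 3, 0 and 1 in the last 3, and the reporter count became 7 per 10000, 5 with 0.001 added and 5 with no filter. Without cells above 10% mitochondrial the last became 5. Of the 30 genes of like pattern, 11 remained with 15 principal components, 12 without the highest Scrublet scores, 7 without cells above 10% mitochondrial, 5 when thinned and 16 with 0.001 or 0.1 added, so these names rest on the setting. The causes were not tested.

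The class with the highest level was kept for 10 of 10 genes except without cells above 10% mitochondrial (Tgfa, then goblet-like) and when thinned (Erbb2, then the 20 interstitial cells of Cajal-like). No paired analysis was possible because each group is 1 library of pooled mice. No replicate could be left out for the same reason.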

Other observations

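The 53 epithelial cells of the reporter library, which came through a sort on GFP, had Areg at a mean of 1.15, with 37.7% of the cells above 0 (24.8 to 52.1), and Hbegf at 1.38, with 47.2% (33.3 to 61.4). Erbb3 was above 0 in 11.3% of them (4.27 to 23.0). Nrg1 was above 0 in 9.43% of these cells (3.13 to 20.7). They had a mean of 3.19 of 10 fibroblast markers above 0 per cell, and the fibroblast clusters of that library had 8.05 to 8.60. Egf was found in none of the 53, which allows a share of up to 5.66%. Of the 114 immune-like cells of the same library, 14.9% were above 0 for Ereg (8.93 to 22.8), beside 21.6% of its fibroblasts (20.3 to 22.8), and they had 5.29 fibroblast markers per cell. The part of fibroblast RNA or of mixed droplets in these values was not tested.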
